A study of Mus musculus with 12 samples.

Results

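The genes described here are 39 members of the NRF2 pathway and of the enzyme systems that remove oxidants, out of 34787 gene names on the array. The rule names genes and uses no measured value, though the list was drawn up with results of these data known. All 39 were found, on 51 probes, and 38 were well above background on all 3 arrays of at least 1 of the 4 groups. Plasma glutathione peroxidase, Gpx3, was the exception: it was well above background on 2 of the 3 knockdown RAW264.7 arrays and on 1 control-primed CT-26 array.

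NRF2, encoded by Nfe2l2, is a transcription factor that KEAP1 holds in the cytoplasm and marks for degradation. Oxidants and electrophiles modify KEAP1, NRF2 accumulates, and it binds antioxidant response elements together with small MAF proteins, at sites where BACH1 otherwise represses. Its textbook targets make and recycle glutathione and thioredoxin, supply NADPH and detoxify quinones and carbonyls. In macrophages these enzymes limit damage from the oxidants that the cells themselves produce.

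The study measured total RNA on 1-colour mouse oligonucleotide arrays in 4 groups of 3 samples. RAW264.7, a mouse macrophage-like line, carried either the PLKO control vector or 1 shRNA against Abhd5, the lipid droplet protein that co-activates adipose triglyceride lipase. CT-26, a mouse colon carcinoma line, had been primed either by the control RAW264.7 cells or by the ABHD5-KD RAW264.7 cells. No CT-26 cells without priming were among the samples, so every CT-26 value comes from cells that had met macrophages. How the cells were primed, and whether the knockdown line was a clone, is not in the labels. Nothing there says that replicates are separate cultures either, so p-values measure only the spread between these samples, which may be technical.

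Abhd5 checked the labels first. Its levels, as log2 signal relative to the array's 75th percentile (the scale of every level below), were 1.38, 1.93 and 1.52 in control RAW264.7 and 0.25, 0.23 and 0.39 after knockdown, which left 40.0% of the control signal (limma, adjusted p = 0.00344). All 12 of the macrophage markers on the array were well above background on every RAW264.7 array, and the log2 of their summed signal ranged from 8.16 to 8.34 in the controls and from 8.21 to 8.40 after knockdown. In CT-26 it was 5.79 to 5.93 with control priming and 5.83 to 6.23 with knockdown priming. Of the 12, 9 were well above background on all 3 control-primed arrays and 8 on all 3 knockdown-primed arrays. Spi1 and Adgre1, also on that list, were not well above background on any CT-26 array. The log2 of the summed signal of 12 epithelial markers was 0.58 to 1.07 in control RAW264.7 and 0.22 to 0.29 after knockdown. In CT-26 that sum was 5.05 to 5.23 with control priming and 4.75 to 5.12 with knockdown priming. On all 3 arrays, 3 of the 12 were well above background in control RAW264.7, 8 after knockdown and 7 in each CT-26 group. For 7 fibroblast or mesenchyme markers the sum was 5.95 to 6.01 in control-primed and 6.05 to 6.36 in knockdown-primed CT-26. CT-26 had high Krt18 and Krt20, but the epithelial markers Epcam, Cdh1, Cdx2 and Vil1 were well above background on at most 1 of 3 arrays of either CT-26 group. The share of probes well above background was 56.5% and 57.9% on control RAW264.7 arrays 1 and 2, which shared a slide, and between 69.0% and 73.0% on the slide that held control array 3 and all 3 knockdown arrays. The 6 CT-26 arrays, with shares between 59.3% and 77.3%, shared another slide, so cell line and slide cannot be told apart.

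The first comparison asked how the macrophage-like cells with the Abhd5 shRNA differed from those with the control vector. Of the 37 members that could be tested, 6 rose: the quinone reductase Nqo1, the growth inhibitor gene Osgin1, the glutathione transferase Gstp1, malic enzyme Me1, sulfiredoxin Srxn1 and carbonyl reductase Cbr3. The mitochondrial thioredoxin reductase Txnrd2 and the copper-zinc superoxide dismutase Sod1 fell, and the other 29 members did not pass the threshold of a limma adjusted p of 0.05 over all genes. Across the array 22.8% of the 25306 genes tested were called, 7.93% higher and 14.9% lower. The share of members called was thus close to that background, with more of the calls upward. The median change of the members was -0.17 on the log2 scale against -0.30 for all genes tested, and 24 of the 37 lay above that all-gene median.

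To show the sequence in front of the members that rose, the RefSeq promoter windows (GRCm38.p6, 250 bases before to 50 after each start site) were searched on both strands for the core of the antioxidant response element, TGACNNNGC, and for the AP-1 site TGACTCA or its reverse complement TGAGTCA. The stretches from 150 bases before to 10 after the start site are shown for the member that rose most and for the 4 others that rose and hold a match. Capitals mark the matches, and every stretch reads 5′ to 3′ on the gene's own strand.
Nqo1, chr8:107403196-107403355, minus strand: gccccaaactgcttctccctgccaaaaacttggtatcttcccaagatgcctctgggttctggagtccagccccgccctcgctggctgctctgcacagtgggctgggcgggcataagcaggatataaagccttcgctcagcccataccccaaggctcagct
Osgin1, chr8:119436997-119437156, plus strand: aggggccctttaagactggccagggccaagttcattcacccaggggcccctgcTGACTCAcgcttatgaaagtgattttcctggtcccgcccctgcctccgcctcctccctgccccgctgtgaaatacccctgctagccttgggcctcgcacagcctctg
Gstp1, chr19:4037903-4038062, minus strand: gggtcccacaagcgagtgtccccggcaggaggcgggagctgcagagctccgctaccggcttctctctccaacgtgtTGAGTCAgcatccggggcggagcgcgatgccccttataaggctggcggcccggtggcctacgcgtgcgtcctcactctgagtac
Me1, chr9:86695905-86696064, minus strand: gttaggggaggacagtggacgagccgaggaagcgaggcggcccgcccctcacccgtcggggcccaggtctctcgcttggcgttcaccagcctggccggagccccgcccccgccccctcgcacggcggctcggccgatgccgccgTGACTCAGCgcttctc
Srxn1, chr2:152105374-152105533, plus strand: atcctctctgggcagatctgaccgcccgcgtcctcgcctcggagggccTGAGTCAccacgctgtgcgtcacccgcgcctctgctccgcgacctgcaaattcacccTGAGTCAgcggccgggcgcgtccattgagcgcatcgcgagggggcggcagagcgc
Windows were found for 33 of the 39 members. The antioxidant core occurred in 9 of the 33, or 27.3%, against 14% of 27025 genes. With a purine required before it, the core was in 3 of the 33, or 9.09%, against 7.2%. The AP-1 site was in 6, or 18.2%, against 5.95%. Me1 holds TGACTCAGC across its start site, from base -6 to base 3 with no base 0, where the AP-1 site and the antioxidant core overlap. Srxn1 holds AP-1 sites at -102 to -96 and at -45 to -39 and an antioxidant core downstream of the stretch shown, at 29 to 37. The Osgin1 site lies at -97 to -91 and the Gstp1 site at -74 to -68. The Gstp1 site and the Srxn1 site at -45 to -39 are TGAGTCA followed by GC. They differ from the searched core only in TGAG for TGAC, so they were not counted as cores. Neither motif was found in the 300-base windows of Nqo1 and Cbr3, which says only that these letters are not in those windows. Windows of members that did not pass the test hold matches too: Nfe2l2, Gclm, G6pdx, Pgd, Prdx1 and Txnrd1 have the core, and Prdx1 and Glrx have the AP-1 site. Sod1, which fell, also has the core. The shares describe sequence only and were not tested against the expression changes.

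None of the 3 regulators passed the test as fitted over all 6 RAW264.7 arrays. Nfe2l2 was at 2.71, 1.95 and 2.47 on the control RAW264.7 arrays and at 2.42, 2.51 and 2.45 after knockdown, so the 3 knockdown arrays lay inside the control range (difference 0.09 ± 0.22 SE on the log2 scale, 95% interval -0.42 to 0.60, limma adjusted p = 0.778). Keap1, the inhibitor, was at 3.24, 3.20 and 3.30 in the controls and at 2.88, 2.63 and 2.63 after knockdown. These groups did not overlap, but the difference of -0.53 ± 0.17 missed the threshold (limma adjusted p = 0.0543, 95% interval -0.93 to -0.14), and it passed in 3 of 16 alternatives (lowest limma adjusted p = 0.0417). Bach1, the repressor, was at -1.33, -1.21 and -2.19 against -1.33, -1.04 and -1.21, with control array 3 the lowest (difference 0.39 ± 0.27, limma adjusted p = 0.288). Set against that array alone, the 1 control on the knockdown slide, Bach1 was higher by 1.0 (limma adjusted p = 0.0398 within slide 2 and 0.0737 with slide as a block). The probes for the 3 regulators lie, on mm9, at chr2:75513771-75513830 for Nfe2l2, chr9:21035292-21035732 for Keap1 and chr16:87733532-87733591 for Bach1.

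In the group of quinone, carbonyl and conjugation enzymes, which here also holds Osgin1 and the exporter Abcc1, 4 of 9 members rose and none fell. Nqo1 reduces quinones by a transfer of an electron pair that avoids reactive semiquinones, and it showed the widest separation. Its level was -4.32, -3.95 and -3.84 on the control arrays, 2 of which were well above background, and -0.19, -0.80 and -0.77 after knockdown. The rise was 10.9-fold (log2 3.45 ± 0.23, 95% interval 2.92 to 3.98, limma adjusted p = 4.63e-05), and the groups were far apart. The probe lies at chr8:109912440-109912499 on mm9, minus strand.

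Osgin1, an oxidative stress-induced growth inhibitor, was at -0.73, -1.14 and -0.79 in the controls and at 0.82, 0.65 and 0.82 after knockdown (probe at chr8:121970077-121970136 on mm9). Every knockdown array was above every control array, and the rise was 3.13-fold (log2 1.65 ± 0.19, limma adjusted p = 0.000739). In bulk RNA, a level per cell and the number of cells that express a gene cannot be told apart.

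Gstp1, which conjugates glutathione to electrophiles, rose from 3.09, 3.04 and 3.28 to 4.69, 4.76 and 4.67. The tight groups were 2.97-fold apart (log2 1.57 ± 0.17, limma adjusted p = 0.000555), and the gene's second probe gave 1.38. The probe lies on mm9 within chr19:4035908-4036723. The near-identical Gstp2 has a probe of its own, but cross-hybridization between the copies could not be separated, so how far each rose is not settled.

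Cbr3 reduces carbonyl groups with NADPH. It was at 1.41, 1.79 and 1.59 in the controls and at 2.86, 2.48 and 2.19 after knockdown, with no overlap but a wider spread among the knockdown arrays (1.89-fold, log2 0.92 ± 0.22, limma adjusted p = 0.0253, probe at chr16:93691120-93691179 on mm9). Cbr1, its near relative in function, went the other way without passing the test (-0.53 ± 0.18, limma adjusted p = 0.0581). The remaining members of the group, Blvrb, Gsta4, Gstm1 and the glutathione-conjugate exporter Abcc1, changed by between -0.29 and 0.17 and were not called.

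**Figure D1:**
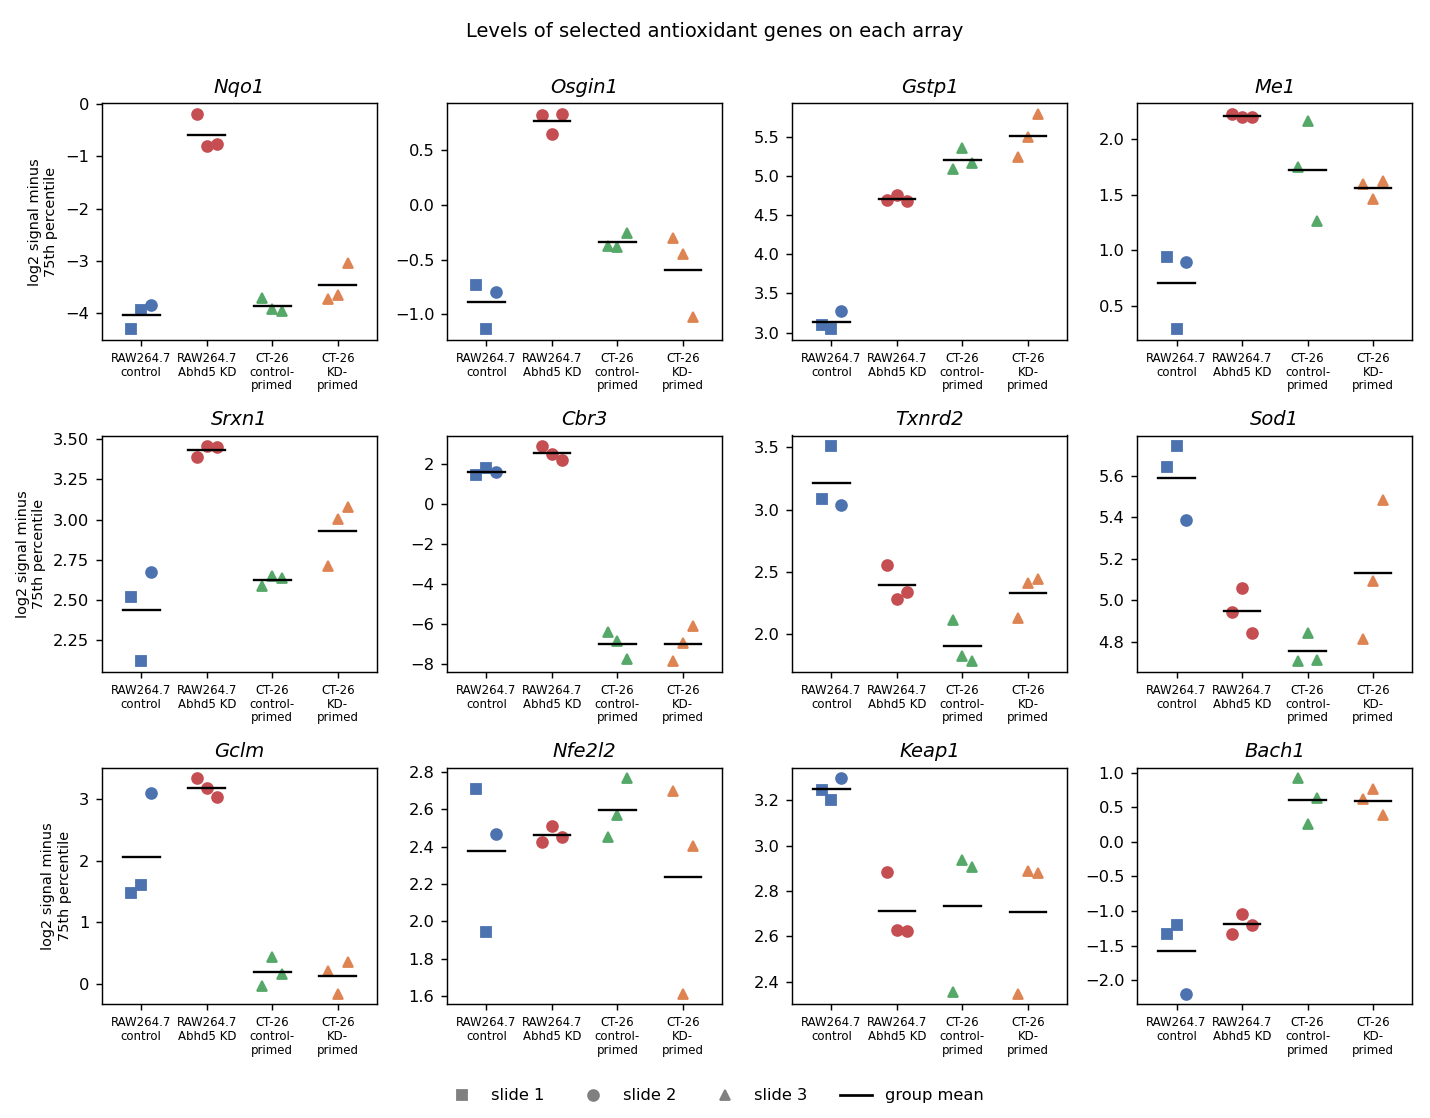
Levels of 12 antioxidant genes on each of the 12 arrays, as log2 signal relative to the array's 75th percentile, by group; marker shape gives the slide and the horizontal line the group mean. The knockdown RAW264.7 arrays lie above all control arrays for Nqo1, Osgin1, Gstp1, Me1, Srxn1 and Cbr3 and below them for Txnrd2, Sod1 and Keap1, and each panel has its own vertical scale.

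Among the malic enzyme and pentose phosphate genes, grouped here under NADPH supply, 1 of 5 rose. Me1, which makes NADPH from malate in the cytosol, was at 0.94, 0.29 and 0.89 in the controls and at 2.23, 2.20 and 2.20 after knockdown. The knockdown arrays were nearly identical and all above the controls (2.84-fold, log2 1.51 ± 0.21, limma adjusted p = 0.00266, probe at chr9:86480571-86480630 on mm9). The other 2 probes of Me1 gave 1.86 and 1.79. The pentose phosphate enzymes did not pass the test: G6pdx, the first and limiting step, changed by 0.05, Pgd by -0.36, Taldo1 by -0.49 and Tkt by -0.50, with limma adjusted p-values between 0.0585 and 0.833.

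In the thioredoxin and glutaredoxin system the 2 called genes moved in opposite directions. Srxn1, which restores overoxidized peroxiredoxins, rose from 2.52, 2.12 and 2.68 to 3.39, 3.46 and 3.45 (1.99-fold, log2 0.99 ± 0.20, limma adjusted p = 0.0123, probe at chr2:151937009-151937068 on mm9). Txnrd2 fell from 3.09, 3.51 and 3.04 to 2.56, 2.28 and 2.34, which left 56.7% of the control signal (log2 -0.82 ± 0.20, limma adjusted p = 0.0253, probe at chr16:18479106-18479165 on mm9). Neither gene's groups overlapped. The cytosolic reductase Txnrd1 changed by 0.17 ± 0.18, and its substrate Txn1 by -0.57 ± 0.20 (limma adjusted p = 0.0702). Glrx, which removes glutathione from protein thiols, was at 4.16, 1.73 and 4.16 in the controls against 4.40, 4.40 and 4.42, so that its difference of 1.06 ± 0.58 rested on control array 2 (limma adjusted p = 0.182) and was 0.25 without it.

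Glutathione synthesis and recycling had no called member of 4. The catalytic subunit of the first step, Gclc, changed by 0.16 ± 0.17, synthetase Gss by -0.33 ± 0.20 and reductase Gsr by -0.18 ± 0.18. The modifier subunit Gclm, singled out after its values were seen, was at 1.48 and 1.60 on control arrays 1 and 2 but at 3.09 on control array 3, and at 3.33, 3.18 and 3.03 after knockdown. Control array 3, the one that shared the knockdown arrays' slide, lay within their range. The difference was 1.12 ± 0.39 with all arrays (limma adjusted p = 0.0662), 1.64 without control array 3 (limma adjusted p = 0.00141) and 0.09 within that slide.

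Peroxidases, catalase and dismutases form the largest group, with 13 members, of which 11 were tested here. Sod1, which converts superoxide in the cytosol, was the only one called. It fell from 5.64, 5.74 and 5.39 to 4.94, 5.06 and 4.84, all below the controls, which left 64.1% of the signal (log2 -0.64 ± 0.18, limma adjusted p = 0.0389, probe at chr16:90226509-90226568 on mm9). The other 10 changed by between -0.59 (Prdx2) and 0.25 (Sod2), and the median of all 11 was -0.30, the same to 2 decimals as that of all genes. Prdx6 came closest to the threshold at -0.52 ± 0.17 (limma adjusted p = 0.054). The probes of Prdx1 disagreed: the brighter one, used here, gave -0.37 and a dimmer one 1.06 (limma adjusted p = 0.0128 over probes). For catalase, Cat, the probes gave -0.30 and 0.46.

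The 6 rises differed in how far they held. Nqo1, Gstp1 and Osgin1 passed the threshold under every alternative that could test them (15, 16 and 16 settings), and Me1 under 15 of 16; with slide as a block Me1 was 1.32 with a limma adjusted p of 0.0505. With slide as a block, 3 of the 8 calls remained, Nqo1 at 3.26, Gstp1 at 1.43 and Osgin1 at 1.55, while Srxn1 (0.75), Cbr3 (0.92), Txnrd2 (-0.65) and Sod1 (-0.44) kept their direction and were not called; that fit sets the knockdown arrays against the 1 control array on their slide. Srxn1 was lost without knockdown replicate 2 (0.98) or 3 (0.98), and Cbr3 without control replicate 1 (0.82) or knockdown replicate 1 (0.74) or 2 (0.93). Txnrd2 and Sod1 were each lost without control replicate 1 (-0.88 and -0.62) and without knockdown replicate 1 (-0.90 and -0.64), 2 (-0.76 and -0.70) or 3 (-0.79 and -0.59). The falls also depended on scaling: centring on the median, which moved the all-gene median from -0.30 to -0.07, left 6 members higher and 0 lower (Txnrd2 -0.58, Sod1 -0.40), and quantile normalisation gave 8 higher and 0 lower, the 6 rises plus G6pdx (0.55, limma adjusted p = 0.0347) and Prdx5 (0.73, limma adjusted p = 0.0178). Over all genes the split of 2007 higher and 3769 lower became 2428 and 1312 with median centring. Other settings gave more falls. Requiring every array well above background gave 6 members higher and 6 lower, beside 1534 and 4884 of all genes. Normexp background correction gave 7 higher and 4 lower, beside 1732 and 5827 of all genes.

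**Figure D2:**
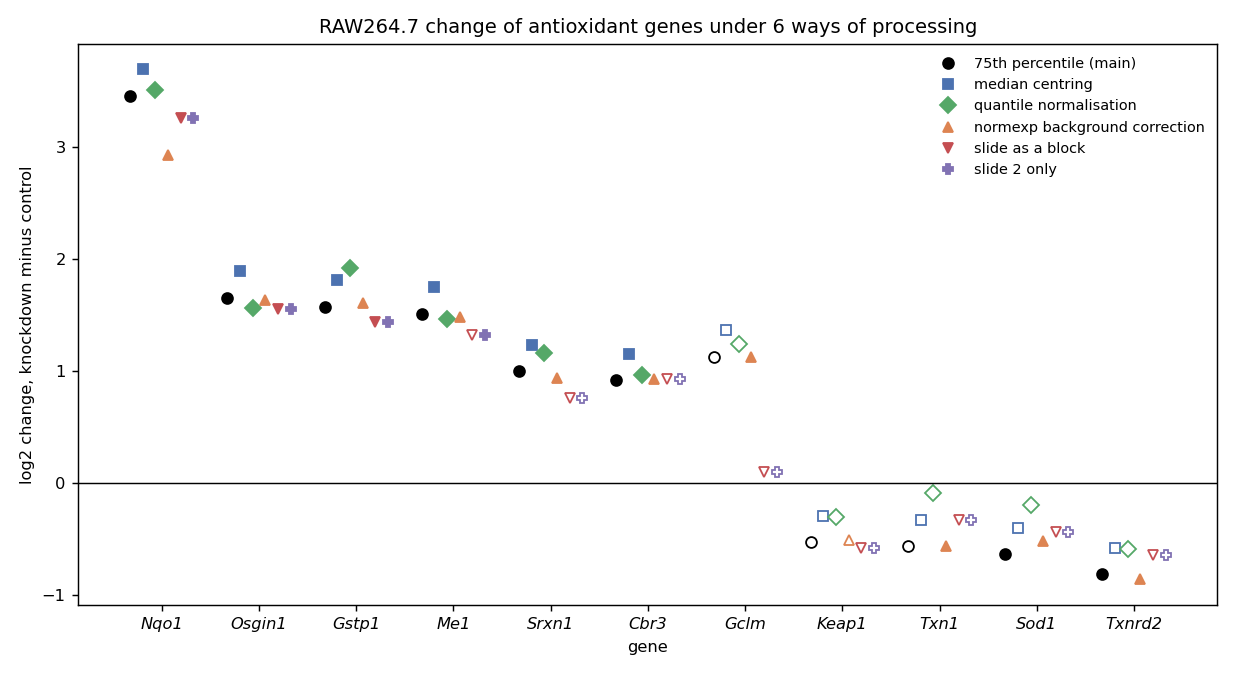
RAW264.7 change (log2, knockdown minus control) of the 8 called antioxidant genes and of Gclm, Keap1 and Txn1 under the main scaling and 5 alternatives; filled symbols mark a limma adjusted p under 0.05 and open symbols the rest. Nqo1, Osgin1 and Gstp1 are filled throughout, and Gclm drops from 1.12 to 0.09 when the slide is taken into account.

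The second comparison asked whether the tumour cells differed by which macrophages had primed them. No antioxidant member passed the threshold in CT-26: 0 of the 37 tested were called higher and 0 lower by limma, while 6.32% of 24824 genes were called, 3.14% higher and 3.17% lower. That count takes the brightest probe of each gene. The probes of Prdx4 disagreed: the one used gave -0.33 and a dimmer one 0.91 (limma adjusted p = 0.0418 over probes). At an unadjusted p under 0.05 there were 9 members, 8 higher and 1 lower, or 24.3% against 29.9% of all genes tested. Of all genes, 4598 were higher and 2826 lower at that threshold. The median change was 0.16 against 0.11 for all genes. Changes ran from -0.44 to 0.66 and their 95% intervals reached from -1.0 to 1.43 in all. The share of probes well above background was 68.3% to 77.3% with control priming and 59.3% to 67.0% with knockdown priming, and its part in these values was not tested.

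Glutathione reductase Gsr had the smallest adjusted p. It was at 2.57, 2.80 and 2.85 with control priming and at 3.05, 3.72 and 3.42 with knockdown priming, groups that did not overlap (0.66 ± 0.20, limma adjusted p = 0.0741). Without knockdown-primed replicate 1 the value was 0.83 (limma adjusted p = 0.0352), and the gene's dimmer probe gave -0.04. Abcc1, at 1.35, 1.64 and 1.52 against 1.07, 1.10 and 1.02, was lower by -0.44 ± 0.15 without passing the test (limma adjusted p = 0.0988), and passed with normexp background correction (-0.54, limma adjusted p = 0.0493).

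The genes that moved in RAW264.7 had these CT-26 values. Nqo1 was at -3.72, -3.93 and -3.97 with control priming and at -3.73, -3.65 and -3.04 with knockdown priming (0.40 ± 0.21, limma adjusted p = 0.22). Its groups overlapped, with knockdown-primed replicate 3 the highest. Osgin1 was at -0.38, -0.38 and -0.26 against -0.31, -0.45 and -1.02, Me1 at 1.75, 2.16 and 1.26 against 1.60, 1.47 and 1.63, and Gstp1 at 5.09, 5.36 and 5.16 against 5.24, 5.49 and 5.79. Each of these overlapped between groups. Srxn1 was at 2.59, 2.65 and 2.64 against 2.71, 3.0 and 3.08, without overlap but not called (0.30 ± 0.16, limma adjusted p = 0.223). Cbr3 could not be tested, being well above background on 1 of the 3 control-primed arrays and on none of the others.

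Txnrd2 was at 2.11, 1.83 and 1.78 with control priming and at 2.13, 2.41 and 2.44 with knockdown priming (0.42 ± 0.17, limma adjusted p = 0.135). Sod1 was at 4.71, 4.84 and 4.71 against 4.81, 5.09 and 5.48 (0.38 ± 0.19, limma adjusted p = 0.215). Both measured values lay above 0 here and below 0 in RAW264.7. Among the regulators, Nfe2l2 was at 2.45, 2.57 and 2.77 against 2.70, 1.61 and 2.40 (-0.36 ± 0.26), Keap1 at 2.36, 2.93 and 2.90 against 2.35, 2.89 and 2.88 (-0.03 ± 0.22), and Bach1 at 0.92, 0.26 and 0.63 against 0.62, 0.77 and 0.39 (-0.01 ± 0.20). The groups overlapped for all 3, and limma adjusted p-values lay between 0.374 and 0.975.

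**Figure D3:**
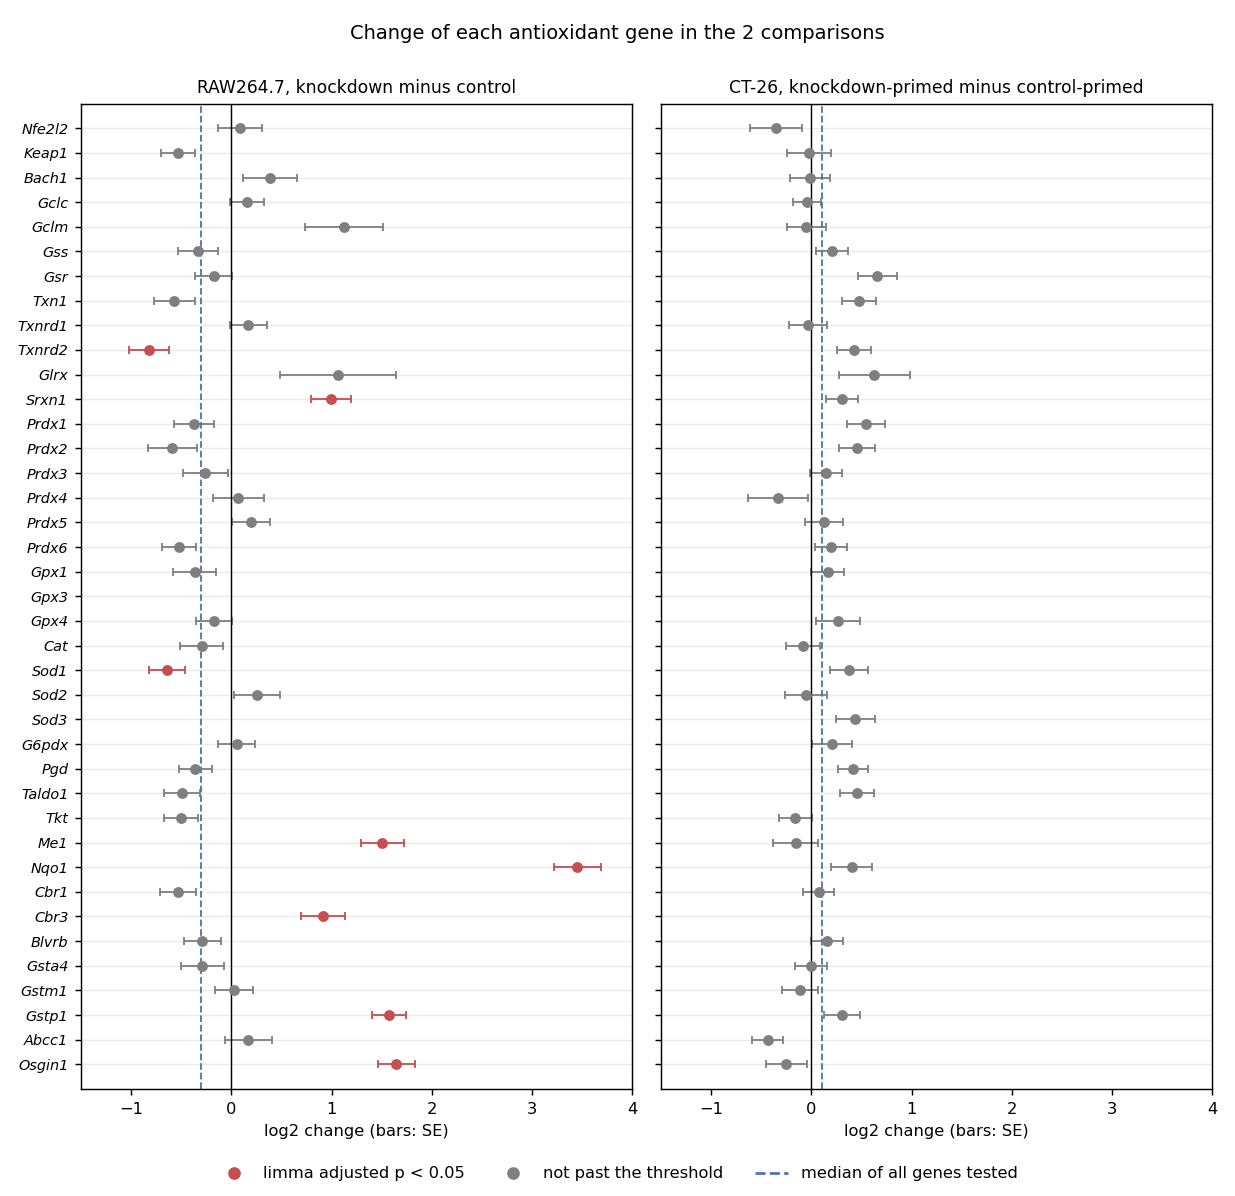
Change of each of the 39 antioxidant genes (log2, with SE) in RAW264.7 after Abhd5 knockdown and in CT-26 primed by knockdown instead of control cells; red marks a limma adjusted p under 0.05, the dashed line is the median of all genes tested and genes without a point could not be tested. The 8 called genes are all in the RAW264.7 panel, and the CT-26 values lie between -0.44 and 0.66.

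Whether the change differed between the cell lines was tested directly, as the RAW264.7 change minus the CT-26 change in 1 fit over all 12 arrays. This contrast shares every array with the comparisons above and is given beside them, not as separate support. Of 38 members tested, 5 were called with the RAW264.7 change higher and 11 with it lower. One of the lower calls, Sod3, was not well above background on any RAW264.7 array, which leaves 10 lower calls with a measured level in both lines. Over the 26887 genes tested 31.4% were called, 7.43% higher and 24% lower, and the median was -0.39 against -0.25 for the members. Cell line and slide cannot be told apart in these data, although each CT-26 change is a difference within 1 slide.

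The changes of Nqo1 (difference 3.05 ± 0.33, limma adjusted p = 0.000107), Osgin1 (1.90 ± 0.28, 0.000932), Me1 (1.66 ± 0.33, 0.00513) and Gstp1 (1.27 ± 0.24, 0.00395) were larger in RAW264.7. These 4 genes passed under every alternative that could test them (21, 22, 22 and 22 settings). Srxn1 passed narrowly (0.69 ± 0.24, limma adjusted p = 0.0471) and under 6 of 22 alternatives. The differences called lower were those of the mitochondrial thioredoxin reductase Txnrd2 (-1.24), thioredoxin Txn1 (-1.04), the peroxiredoxins Prdx1 (-0.91), Prdx2 (-1.05) and Prdx6 (-0.71), the dismutase Sod1 (-1.02), the pentose phosphate enzymes Pgd (-0.78) and Taldo1 (-0.95), Gsr (-0.83) and Cbr1 (-0.60). Of these 10, Txnrd2 and Sod1 were called in RAW264.7 and none in CT-26. The dimmer probe of Prdx1 changed by 1.06 in RAW264.7 and 0.57 in CT-26, and that of Gsr by 0.11 and -0.04. Other detected probes of Prdx6 changed by -0.54 and -0.58 in RAW264.7 and by 0.56 and 0.21 in CT-26. The difference was not tested for these probes.

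The number of lower calls depended on the scaling and the slide, though the 10 measured in both lines stayed below 0 throughout. Txnrd2 was called in 21 of 22 alternatives, Taldo1 in 20, Sod1 and Txn1 in 19 each and Pgd in 17. Prdx6 was called in 14, Prdx2 in 13, Prdx1 in 11, Gsr in 7 and Cbr1 in 5. Members called numbered 4 higher and 5 lower with median centring (all-gene median -0.20), 7 and 1 with quantile normalisation (all-gene median -0.10, Txnrd2 the lower one), and 4 and 0 with slide as a block. Leaving out RAW264.7 knockdown replicate 3, CT-26 control-primed replicate 3 or CT-26 knockdown-primed replicate 3 left 9 calls each time.

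The last comparison set the control groups of the cell lines against each other, to show where the pathway is high before any knockdown. Of 38 members tested, 25 were higher in control RAW264.7 and 7 higher in control-primed CT-26, beside 72.1% of 25412 genes called, 45.8% higher and 26.4% lower in RAW264.7. The median difference was 0.94 for the members and 0.41 for all genes. The 6 members not called were Nfe2l2, Gclc, Srxn1, Prdx4, Prdx5 and Nqo1, the last at -0.16 ± 0.23. Quantile normalisation, which moved the all-gene median to 0.17, gave 17 higher and 11 lower and turned the sign of Blvrb, Gpx4, Keap1 and Prdx2, which the main scaling calls higher. Since each cell line lay on its own slides, line and slide cannot be told apart.

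Among members measured on all arrays of both groups, the largest differences towards RAW264.7 were those of the carbonyl reductase Cbr1 (5.70 ± 0.15), Glrx (2.72 ± 0.56), Gclm (1.87 ± 0.34) and Gss (1.86 ± 0.18), all with limma adjusted p-values under the threshold. Cbr1 was at 3.93, 4.19 and 3.91 in control RAW264.7 and at -1.52, -1.83 and -1.73 in control-primed CT-26. Cbr3 was well above background on only 1 of those 3 CT-26 arrays; its fitted difference was 8.63, and 6.60 with normexp background correction, so its size is not settled. The gap for Gclm depended on the RAW264.7 control, being 2.90 against control array 3 alone. The 4 pentose phosphate enzymes on the list were all higher in RAW264.7: G6pdx by 1.81, Tkt by 1.39, Taldo1 by 1.38 and Pgd by 1.20.

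Towards CT-26, Gsta4, which conjugates lipid peroxidation aldehydes, had the largest measured difference (-4.14 ± 0.19), then Bach1 at -2.18 ± 0.25, Gstp1 at -2.07 ± 0.17 and Me1 at -1.02 ± 0.23. The secreted dismutase Sod3 was at -1.56, -2.05 and -1.99 against RAW264.7 arrays on which it was not well above background, at least 11.3-fold lower in RAW264.7. This bound takes, on each dim array, the higher of the lowest well-detected signal and the probe's own. Osgin1 was lower in control RAW264.7 by -0.55 ± 0.19 (limma adjusted p = 0.0233), but passed in only 11 of 16 alternatives. So of the 4 genes with the firmest rises after knockdown, Gstp1, Me1 and Osgin1 had started below CT-26 and Nqo1 at a similar measured level; both comparisons use the same RAW264.7 control arrays.

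**Figure D4:**
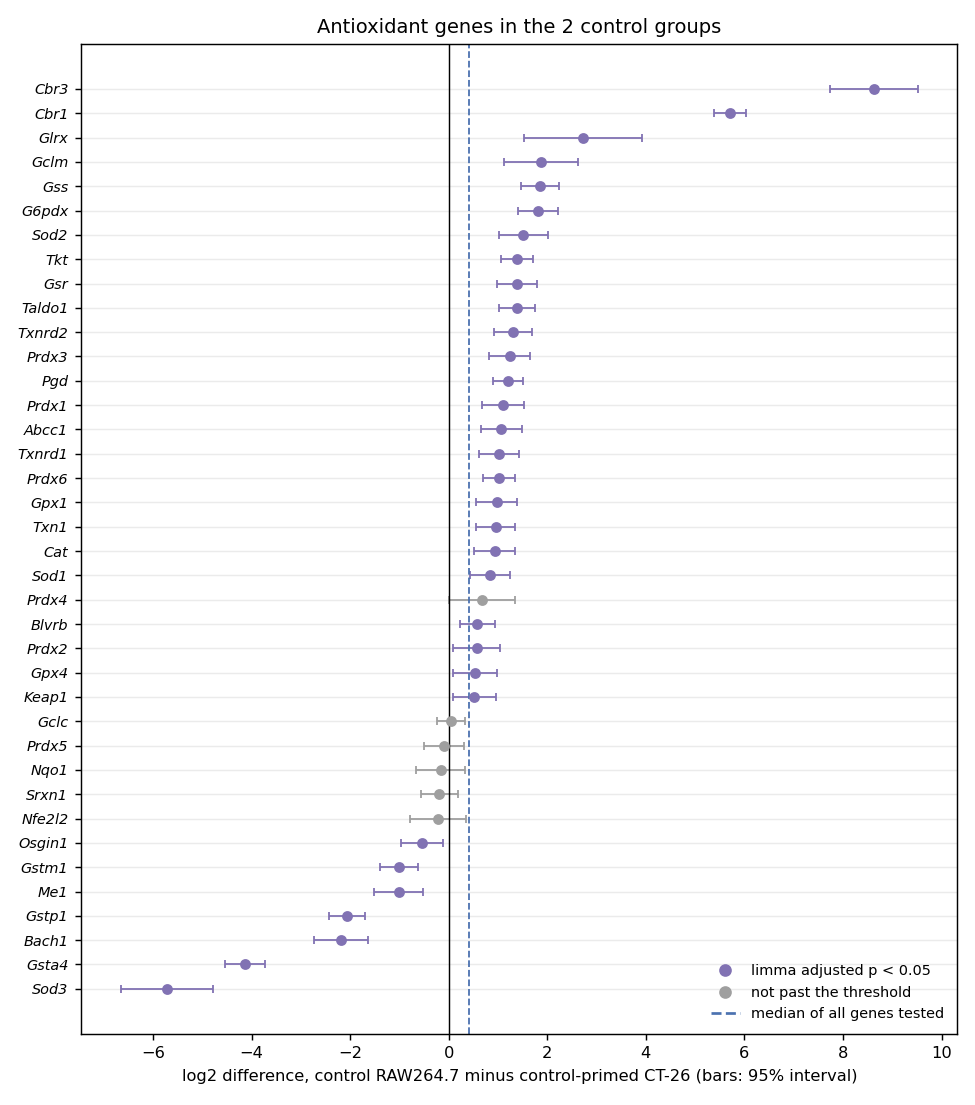
Difference between control RAW264.7 and control-primed CT-26 for the 38 tested antioxidant genes (log2, with 95% interval); purple marks a limma adjusted p under 0.05 and the dashed line the median of all genes. Of the genes measured in both groups, Cbr1 lies farthest towards RAW264.7 and Gsta4 farthest towards CT-26; the points of Cbr3 and Sod3 are fitted values that rest on arrays at background in 1 line.

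The wider pathway was described with a further list of 96 genes. In RAW264.7, 21 of 86 tested rose and 10 fell, beside 7.93% higher and 14.9% lower of all genes, with a median of 0.08. With median centring the split was 25 and 2, with quantile normalisation 25 and 2, and with slide as a block 12 and 0. All 25306 genes split there into 2428 higher and 1312 lower, 2172 and 1860, and 890 and 272. The cystine carrier Slc7a11, which feeds glutathione synthesis, was not well above background in the controls and was at least 5.71-fold higher after knockdown (limma adjusted p = 1.67e-05). Trim16 rose by 2.55, the organic anion exporter Abcc3 by 2.26 and 5-oxoprolinase Oplah, of the glutathione cycle, by 2.08 on the log2 scale. Heme oxygenase Hmox1, a standard marker of this pathway, was at 4.52, 4.69 and 4.78 in the controls and at 4.97, 5.13 and 5.11 after knockdown, without overlap but not called (0.40, limma adjusted p = 0.106). The falls with the smallest p were those of the transferases Mgst3 (-0.95) and Gstz1 (-1.13), malic enzyme Me3 (-0.77) and glutaredoxin Glrx5 (-0.89). In CT-26, 3 of 88 were called by limma, all higher, beside 3.14% of all genes: carbonyl reductase Cbr2 (1.25), Glrx5 (0.83) and aldehyde dehydrogenase Aldh3a1 (0.78). With the replicate number as a block 1 was called higher and 1 lower.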

How the data were processed

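Signals were read from the deposited scanner files, 1 Cy3 array per sample; per the submitters' processing notes they came from Agilent Feature Extraction 10.7.3.1. The deposited processed intensity, background-subtracted per the file headers, was put on the log2 scale and reduced by each array's 75th percentile. Outlier-flagged and control spots were left out, spots of a probe averaged, and the brightest detected probe kept per gene. Symbols were updated through RefSeq (26762 probes by accession and 4458 by symbol; 24461 kept the design's name). A gene was tested when 1 of the groups compared had it well above background on each of its 3 arrays. Fits used limma 3.58.1 in R 4.3.3, with Benjamini-Hochberg adjustment over all genes. The fitting script was checked on simulated data.

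The members and lists were chosen with earlier results of these data known. All members are accounted for; array values are given for called members and the regulators, and, chosen after their values were seen, for Gclm, Glrx, Gsr, Abcc1, Cbr1 and Hmox1. Probe positions are on mm9 as in the files, without annotation of exons. Alternatives covered scaling, background correction, filter, probe choice, slide, left-out arrays and the deposited value table, whose columns are log2 for RAW264.7 (medians -4.01 to -3.53) and linear intensity for CT-26 (medians 132 to 277); there, 5 of the 6 CT-26 columns matched another replicate of their group. Its centring and scaling are not given in the sources used here. The number of arrays limits the precision.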

Additional observations from a re-analysis of the deposited data

Results flagged for a closer look

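The RAW264.7 change (knockdown minus control) differed from the CT-26 change (primed by knockdown minus primed by control cells), by limma's test of the difference itself over 12 arrays, for 16 members. Across the 26887 genes tested 31.4% were called as well, 7.43% higher and 24% lower. The difference (RAW264.7 minus CT-26, log2) was positive for Nqo1 at 3.05, Osgin1 at 1.90, Me1 at 1.66, Gstp1 at 1.27 and Srxn1 at 0.69. It was negative for Cbr1 at -0.60, Prdx6 at -0.71, Pgd at -0.78, Gsr at -0.83, Prdx1 at -0.91, Taldo1 at -0.95, Sod1 at -1.02, Txn1 at -1.04, Prdx2 at -1.05 and Txnrd2 at -1.24. Prdx1 and Gsr were called in 11 and 7 of 22 alternatives. For each of them the dimmer probe had the higher change in RAW264.7. The fitted value for Sod3 was -1.74, but Sod3 was not well above background on any RAW264.7 array, and it was called in 2 of 21 alternatives. With slide as a block Nqo1, Osgin1, Me1 and Gstp1 kept their call. What else sets the 2 cell lines apart on these slides was not tested.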

How the results depend on the processing

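In RAW264.7 8 members were called, beside 22.8% of all genes. With no filter on dim probes 5 were called (7.53% of all genes), and with slide as a block 3 (4.59%). Each array left out in turn gave 4 to 10, beside 6.64% to 29.1% of all genes. Apart from the fit within slide 2, which holds 1 control array, the other settings called between 6 and 12. Those settings called 14.8% to 30.4% of all genes. In CT-26 the 0 calls became 1 with normexp background correction and 0 to 1 with each array left out. The 16 differences, beside 31.4% of all genes, became 9 with median centring (24.2% of all genes) and 8 with quantile normalisation (24.7%). With slide as a block 4 were called (8.86%), and with arrays left out 9 to 16 (18.9% to 37.6%). A fit without slide 1, chosen after seeing the data, left 1 RAW264.7 control array and gave fewer calls than the main fit. The 32 cell line calls became 28 to 32, a slide as a random block, also chosen after seeing the data, giving 29.

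Same-numbered arrays did not deviate together: the correlations were -0.01, 0.04 and -0.02 in RAW264.7 and -0.11, -0.21 and -0.05 in CT-26, so the numbers are not taken as pairs. With the replicate block 7 members were called in RAW264.7, 0 in CT-26, 10 in the difference and 32 between the lines.

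Over the alternatives 13 of 37 members in RAW264.7 and 18 of 37 in CT-26 took both signs, none of them called in that comparison, as did 8 of 38 between the lines and 10 of 38 in the difference. Of the regulators and the called members, these turned; the cause was not tested. Nfe2l2 in RAW264.7 was -0.0077 with slide as a block and within slide 2, and ranged from -0.13 to 0.25 with arrays left out. In CT-26 Bach1 was 0.035 and Keap1 0.019 with median centring, with ranges of -0.18 to 0.15 and -0.21 to 0.15 with arrays left out. Between the lines, quantile normalisation gave -0.15 for Blvrb, -0.18 for Gpx4, -0.13 for Keap1 and -0.10 for Prdx2.

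Genes near background have only a bound, and with 3 arrays a group the widest 95% intervals of the members in CT-26 reached from -1.0 to 1.43.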

Other observations

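In the wider pathway list the control groups of the 2 cell lines gave 42 of 91 genes higher in RAW264.7 and 32 higher in control-primed CT-26, beside 45.8% and 26.4% of all genes; with quantile normalisation the split was 29 and 35. The theta-class glutathione transferases Gstt1 and Gstt3 were at least 139-fold and at least 115-fold higher in RAW264.7. Aldehyde dehydrogenase Aldh3a1 was lower in RAW264.7 by -6.99 on the log2 scale, Gsto2 by -6.90, Me3 by -4.95 and Trim16 by -4.33. Gamma-glutamyltransferase Ggt1, which breaks down extracellular glutathione, was at least 86.1-fold lower in RAW264.7.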
